A study of Mus musculus with 8 samples.

Results

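Mip, Lim2, Aqp1 and Aqp5 were examined as a group of 4 genes for membrane proteins of the ocular lens, out of 19556 protein-coding genes of at least 1 kb that were measured in the same way. They are 3 aquaporins, which let water cross cell membranes, and Lim2, a junctional membrane protein of the PMP22 and claudin superfamily. For each gene, all called peaks of open chromatin were taken that overlapped its RefSeq gene body or the 50 kb on either side, and the share of the gene body under peaks was measured. The genes were taken by name and not by a threshold on these values.

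Open chromatin was profiled by ATAC-seq, in which a transposase cuts and tags DNA where it is accessible, in lenses of CD1 mice at E14.5 and, just after birth, at P0.5, called embryonic and newborn in what follows. No treatment or altered allele is given for any group. Lens epithelium and lens fibers were separated by microdissection, and each library held several pooled lenses. There were 2 libraries in each of the 4 groups, and the 2 libraries of a group were pooled into 1 peak list before deposition, so values have no spread between replicates and no test between groups was possible. The 4 lists held 100003 peaks in embryonic epithelium, 123743 in embryonic fibers, 58592 in newborn epithelium and 62995 in newborn fibers.

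The lens is made of an anterior layer of epithelial cells and of the fiber cells that arise from them at the equator, elongate, fill with crystallins and lose their organelles. Fiber cells depend on a dense set of membrane channels and junctions, since the lens has no blood supply of its own. Mip, a member of the aquaporin family, is the most abundant membrane protein of fibers and acts both as a water channel and in adhesion between cells. Lim2 is another abundant fiber membrane protein, and mutations in either gene cause cataract. Aqp1 is the water channel of the lens epithelium, and Aqp5 is a water channel that is found in lens, cornea and glands.

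All of these genes lie on the forward strand, and each has a single curated transcript. In GRCm38, Mip lies at chr10:128225810-128231812 with 4 exons, Lim2 at chr7:43430099-43435996 with 5 exons, Aqp1 at chr6:55336299-55348555 with 4 exons, and Aqp5 at chr15:99591028-99594829 with 4 exons. The promoters are printed first because each of them carried a called peak in all 4 lists as deposited. The sequences are those of RefSeq (GRCm38.p6, forward strand, 5′ to 3′), from 250 bases before the annotated start, and capitals mark every match on either strand to the motifs that were searched.
Mip promoter, chr10:128225560-128225859: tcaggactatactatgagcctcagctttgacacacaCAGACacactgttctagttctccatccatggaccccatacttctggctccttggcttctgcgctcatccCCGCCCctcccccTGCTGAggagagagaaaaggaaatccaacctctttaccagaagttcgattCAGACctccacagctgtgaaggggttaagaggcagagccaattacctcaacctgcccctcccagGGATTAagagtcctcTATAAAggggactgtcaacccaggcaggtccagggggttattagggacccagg
Lim2 promoter, chr7:43429849-43430148: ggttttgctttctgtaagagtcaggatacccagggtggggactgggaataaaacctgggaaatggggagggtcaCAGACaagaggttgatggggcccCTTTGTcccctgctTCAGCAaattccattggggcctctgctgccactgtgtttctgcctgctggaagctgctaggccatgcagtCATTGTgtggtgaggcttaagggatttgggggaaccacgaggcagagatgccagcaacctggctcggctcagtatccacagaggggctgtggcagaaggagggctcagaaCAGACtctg
Aqp1 promoter, chr6:55336049-55336348: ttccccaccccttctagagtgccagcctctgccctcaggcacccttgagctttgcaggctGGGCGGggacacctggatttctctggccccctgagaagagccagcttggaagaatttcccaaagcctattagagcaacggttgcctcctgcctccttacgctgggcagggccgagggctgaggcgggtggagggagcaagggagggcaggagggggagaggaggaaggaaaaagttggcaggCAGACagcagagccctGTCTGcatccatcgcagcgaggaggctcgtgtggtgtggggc
Aqp5 promoter, chr15:99590778-99591077: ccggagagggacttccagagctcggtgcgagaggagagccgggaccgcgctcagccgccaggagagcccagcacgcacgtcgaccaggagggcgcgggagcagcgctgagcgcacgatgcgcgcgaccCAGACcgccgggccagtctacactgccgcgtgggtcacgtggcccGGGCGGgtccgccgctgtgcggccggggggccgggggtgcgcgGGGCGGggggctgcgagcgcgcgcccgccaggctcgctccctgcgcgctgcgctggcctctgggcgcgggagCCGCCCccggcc

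The motifs were Maf (TGCTGA), Sox (CNTTGT), Pitx (TAATCC), Hsf (GAANNTTC), Tead (GGAATG), Smad (CAGAC), AP-1 (TGANTCA), Ets (CCGGAAG), Sp1 (GGGCGG) and the TATA box (TATAAA), each on both strands, and the matches in the printed windows did not overlap one another. The Mip promoter held Maf, Pitx and TATA matches, with first bases at −132, −18 and −3 bp from the annotated start, together with Sp1 and Smad matches. The Lim2 promoter held a Maf match at −139 bp, Sox matches at −153 and −69 bp and Smad matches. The Aqp1 and Aqp5 promoters held Sp1 and Smad matches and none of the other motifs. Among 32851 RefSeq promoters of the same 300 bases, 19.5% held a Maf match, 41.2% a Sox match, 7.06% a Pitx match, 13.6% a TATA match, 35.7% an Sp1 match and 49.6% a Smad match. A match describes the letters in the window and not a bound site.

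The promoters also differed in base composition. The Aqp5 promoter had 79.7% G and C with 46 CpG dinucleotides, and 98.8% of RefSeq promoters had a lower GC content. The Mip promoter had 53.3% with 3 CpG, the Lim2 promoter 56.0% with 2 CpG and the Aqp1 promoter 62.7% with 8 CpG, against a median of 52.7% over all promoters. The ratio of observed to expected CpG was 0.974 at Aqp5, 0.278 at Aqp1, 0.144 at Mip and 0.0891 at Lim2, against a median of 0.384. Aqp5 was thus the CpG-rich member, and the 2 fiber genes Mip and Lim2 had CpG-poor promoters.

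Away from the promoters, the strongest region of each member that belonged to no promoter of another gene is printed next, with the next strongest for Aqp5. Each is given as 200 bases around the summit in the list where the region ranked highest (GRCm38.p6, forward strand). The second region of Lim2, at +22.7 kb and the top 14.1% of embryonic fibers, ranked above those of Aqp1 and Aqp5 and is not printed. The Mip region at −0.5 kb is the summit of its promoter peak in embryonic epithelium.
Mip −0.5 kb, chr10:128225205-128225404: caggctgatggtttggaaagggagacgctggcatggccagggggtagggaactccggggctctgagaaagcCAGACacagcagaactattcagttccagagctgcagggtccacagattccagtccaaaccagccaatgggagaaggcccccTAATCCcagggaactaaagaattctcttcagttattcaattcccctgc
Mip −8.3 kb, chr10:128217367-128217566: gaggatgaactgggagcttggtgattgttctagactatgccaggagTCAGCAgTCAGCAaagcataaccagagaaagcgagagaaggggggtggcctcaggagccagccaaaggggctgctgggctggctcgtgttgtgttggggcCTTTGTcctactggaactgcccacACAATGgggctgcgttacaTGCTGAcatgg
Lim2 −6.9 kb, chr7:43423127-43423326: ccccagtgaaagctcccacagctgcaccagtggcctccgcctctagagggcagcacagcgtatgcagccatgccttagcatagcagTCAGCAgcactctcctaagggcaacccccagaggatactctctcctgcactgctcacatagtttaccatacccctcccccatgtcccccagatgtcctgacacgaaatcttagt
Aqp1 −6.8 kb, chr6:55329442-55329641: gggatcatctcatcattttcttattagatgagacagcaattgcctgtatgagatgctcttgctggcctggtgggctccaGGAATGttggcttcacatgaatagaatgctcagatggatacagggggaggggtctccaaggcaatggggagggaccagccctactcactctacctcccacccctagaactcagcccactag
Aqp5 −7.0 kb, chr15:99583912-99584111: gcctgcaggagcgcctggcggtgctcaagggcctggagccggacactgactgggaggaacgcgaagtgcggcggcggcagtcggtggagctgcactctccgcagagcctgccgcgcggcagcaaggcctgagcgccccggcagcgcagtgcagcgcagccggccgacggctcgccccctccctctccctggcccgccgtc
Aqp5 +5.6 kb, chr15:99596483-99596682: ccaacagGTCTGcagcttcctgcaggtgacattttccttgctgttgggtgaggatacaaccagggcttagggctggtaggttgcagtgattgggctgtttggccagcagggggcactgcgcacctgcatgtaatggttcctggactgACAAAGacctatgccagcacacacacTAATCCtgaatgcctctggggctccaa

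The Mip −8.3 kb window held 3 Maf matches, of which a pair lay 7 bases apart from first base to first base on the reverse strand, and 2 Sox matches. The Lim2 −6.9 kb window held a Maf match alone, and the Aqp1 −6.8 kb window held a Tead match alone. The Aqp5 −7.0 kb window, an exon of Aqp2 with 75.5% G and C, held no match, and the Aqp5 +5.6 kb window held Sox, Pitx and Smad matches. In windows of this length around all peak summits of embryonic fibers, 24.7% held a Maf match and 36.0% a Sox match. In embryonic epithelium the share with a Tead match was 15.8%.

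Gene body coverage, the percentage of bases between the annotated start and end that lay under called peaks, separated the members most clearly in embryonic fibers. Mip was covered over 27.8% of its length in embryonic epithelium, 100% in embryonic fibers, 1.0% in newborn epithelium and 13.6% in newborn fibers. Lim2 was covered over 6.32%, 73.1%, 4.56% and 7.73% in the same order. The 2 fiber membrane genes were therefore under called peaks along most or all of their length in embryonic fibers alone among these lists. The lists differ in depth, so a stretch without a call in another list may still be open. The median over all genes was 2.55%, 4.06%, 1.39% and 1.29%, and over the 4940 genes with a length between those of the shortest and longest member it was 6.54%, 9.21%, 3.52% and 3.50%.

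Aqp1 and Aqp5 showed lower values than Mip and Lim2 in the embryonic lists. Aqp5 was covered over 4.68% in embryonic epithelium, 32.6% in embryonic fibers, 4.39% in newborn epithelium and 12.9% in newborn fibers. Aqp1 was covered over 2.54%, 9.81%, 1.26% and 4.50%. The coverage of Aqp5 in embryonic fibers exceeded that of 88.8% of the genes of like length, whereas that of Aqp1 exceeded 52.1%, close to the middle of those genes. The corresponding shares were 99.9% for Mip and 99.0% for Lim2. Among the 4 genes, Mip had the highest coverage in 3 lists and the lowest in newborn epithelium, in the lists as deposited. Among peaks with a q value under 0.001, Aqp5 was above Mip in newborn fibers (12.9% and 11.2%). In newborn epithelium it was then below Mip (0% and 1.0%).

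**Figure D1:**
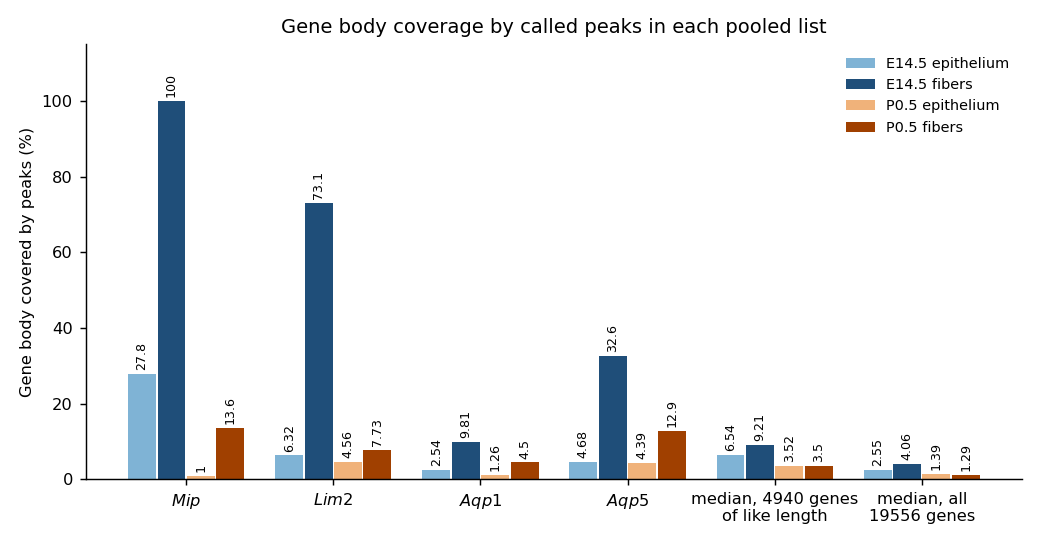
Percentage of the gene body under called peaks (y axis) for each member and for the medians of the genes of like length and of all genes (x axis), with 1 bar for each pooled list of 2 libraries and no error bars because the lists hold no replicates. Mip and Lim2 stand at 100% and 73.1% in embryonic fibers, and Aqp1 stays under 10% in all lists.

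A coverage of at least 50% was reached by 2 of the 4 members in embryonic fibers, Mip and Lim2, where 3.77% of all genes reached it. None of the members reached it in embryonic epithelium, newborn epithelium or newborn fibers, where 1.92%, 0.353% and 0.542% of all genes did. Between fibers and epithelium at E14.5, coverage was higher by at least 20 points in fibers for 3 members against 3.14% of all genes: by 72.2 points for Mip, 66.8 points for Lim2 and 27.9 points for Aqp5. The call for Aqp5 ended, at 14 points with lists of equal length and at 0 points without the first 2 kb of the gene. The difference for Aqp1 was 7.28 points. At P0.5 none of the members differed by that much, against 0.793% of all genes, and the differences were 12.6 points for Mip, 8.47 for Aqp5, 3.25 for Aqp1 and 3.17 for Lim2. Fibers were higher for every member at both stages, but at P0.5 the direction of Lim2 and Aqp5 turned when the first 2 kb of the gene were left out, and at E14.5 the difference for Aqp1 was 0 with lists of equal length. Median differences over all genes were 0.723 points at E14.5 and 0 at P0.5.

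Between stages, coverage was higher at E14.5 than at P0.5 for every member in both tissues, with exceptions under other settings, where the difference was 0 or turned, for Aqp1 and Aqp5 in fibers and for Lim2, Aqp1 and Aqp5 in epithelium. In fibers the difference reached 20 points for Mip (86.4 points) and Lim2 (65.4 points), against 7.45% of all genes, and it was 19.7 points for Aqp5 and 5.31 points for Aqp1. The value for Aqp5 was 5.79 points with lists of equal length and 0 without the first 2 kb. In epithelium it reached 20 points for Mip alone (26.8 points), against 3.34% of all genes, a call that ended at 19.3 points with lists of equal length and at 13.3 points without the first 2 kb. It was 1.76 points for Lim2, 1.28 for Aqp1 and 0.289 for Aqp5. Median differences over all genes were 2.08 points in fibers and 0.783 points in epithelium. The embryonic lists are also the longer ones, and the part of depth in these differences was not tested. When every list was shortened to its 58592 most significant peaks, Mip kept 100% and Lim2 73.1% in embryonic fibers, Aqp5 had 18.6%, and Aqp1 had 0% in both embryonic lists. Shortening drops weaker peaks and leaves the width of the others, so these values do not measure the part of depth.

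The coverage of Mip in embryonic fibers came from a single peak of 9371 bp, chr10:128223931-128233301, which ranked 11 by width among all peaks of that list. It ran from 1.9 kb before the start of Mip through its 3′ end and into the start of Timeless, a gene for a replication and clock-associated protein whose start lies 6.25 kb downstream of that of Mip. The summit of the peak was at +6.41 kb, in an intron of Timeless. Each deposited peak carries a single summit at its highest point, so no summit was listed at the Mip start. The height at the Mip start is therefore not known from this list. Timeless was covered over 5.09%, 56.6%, 2.45% and 18.8% of its length in embryonic epithelium, embryonic fibers, newborn epithelium and newborn fibers, so the fiber-side coverage did not stop at the end of Mip.

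Beyond that peak, a chain of 21 merged regions (peaks of the 4 lists joined when within 10 bp) lay between 8 and 31 kb downstream of the Mip start, over the rest of Timeless and over Apon. The limits of this stretch were set after the regions had been seen. Of these regions, 19 were called in fibers alone and none in epithelium alone, where 44.4% and 19.8% of the merged regions of the genome were. In embryonic fibers 20 of them were called, with 8 to 68 fragments over the summit and a median of 12, and 5 of them were left with lists of equal length. Apon had no peak in its gene body in the other 3 lists and was covered over 47.9% in embryonic fibers.

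Lim2 also lay in a longer stretch of called peaks. In embryonic fibers its gene body was covered by 3 peaks, the widest of which was 3126 bp long at chr7:43432920-43436045 with a summit in an exon of Lim2 and 26 fragments. The same stretch reached Nkg7, a granule protein gene of cytotoxic lymphocytes that starts 7.04 kb downstream of the start of Lim2 and was covered over 0% in embryonic epithelium, 96.3% in embryonic fibers, 0% in newborn epithelium and 55.3% in newborn fibers. Cldnd2, a claudin-domain gene 10.7 kb downstream, was covered over 16.4%, 92.6%, 15.1% and 30.2%. The list of embryonic fibers thus had wide peaks at neighbouring genes as well as at Lim2.

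**Figure D2:**
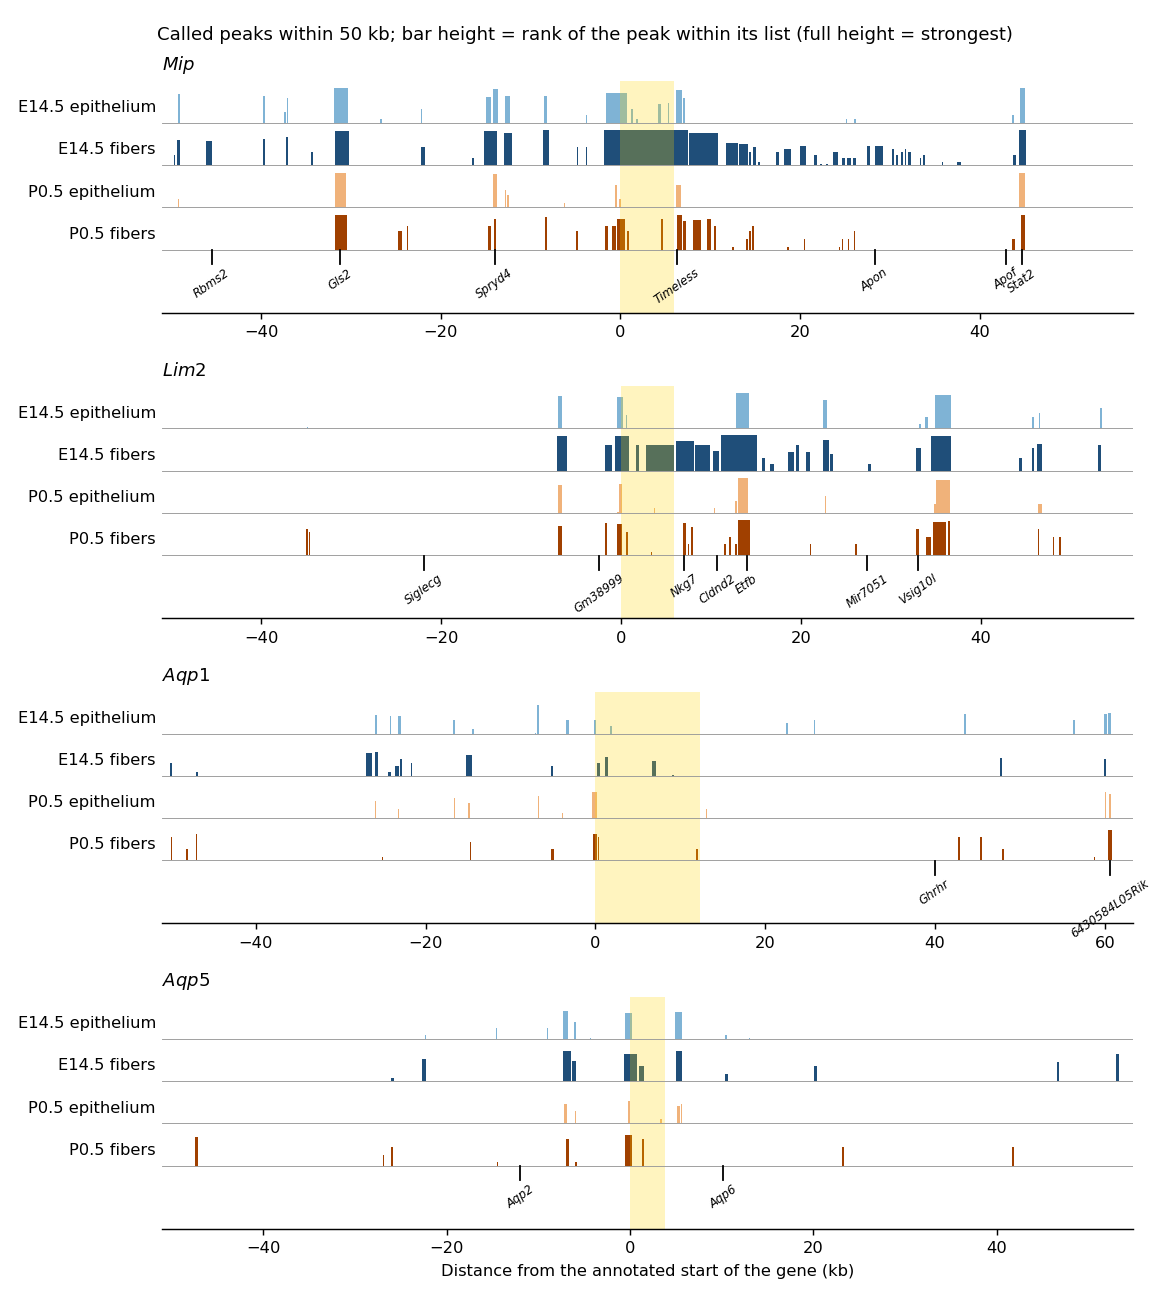
Called peaks in the 50 kb around each gene, by distance from its annotated start in kb (x axis), with 1 row for each pooled list, a bar height that stands for the rank of the peak within its own list (full height is the strongest peak), a yellow band for the gene body and ticks for the starts of neighbouring genes; peaks under 0.15 kb are drawn at that width. The embryonic fiber row is filled across Mip and across most of Lim2, and the Aqp1 and Aqp5 rows hold separate peaks of at most 1398 bp.

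The number of fragments over each summit could be recovered from the deposited fold enrichment, since the values of each list equalled a whole number of fragments plus 1, divided by a constant background plus 1. That background was 1.61 fragments in embryonic epithelium, 2.37 in embryonic fibers, 1.36 in newborn epithelium and 1.16 in newborn fibers. Intervals on fragments are exact 95% Poisson intervals and cover counting error only. The fold over background depends on the share of reads in peaks as well as on the locus, so member values are set beside promoters of neighbouring genes from the same lists.

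Each member had a promoter peak, overlapping the 2 kb on either side of its start, in each list as deposited. With lists of equal length Aqp1 had none in embryonic epithelium and embryonic fibers. With the summit required in the promoter Mip had none in embryonic fibers, where the single summit of its wide peak lay in Timeless. A promoter peak was found for 74.8% of all genes in embryonic epithelium, 75.7% in embryonic fibers, 71.3% in newborn epithelium and 68.8% in newborn fibers, so its presence did not set the members apart. The height of the summits did differ among them.

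The Lim2 promoter peak had its summit at the same base, 78 bp before the annotated start, in embryonic epithelium, embryonic fibers and newborn epithelium. It held 53 fragments (39.7 to 69.3) in embryonic epithelium, 196 (169.5 to 225) in embryonic fibers and 26 (17.0 to 38.1) in newborn epithelium. In newborn fibers the promoter held a summit at +5 bp with 14 fragments and a stronger one at −1.58 kb, in an exon of the noncoding gene Gm38999, with 17 fragments (9.90 to 27.2). The shared summit lies 9 bases upstream of the Sox match at −69 bp in the printed promoter. The fold over background at the strongest promoter summit was 20.7 in embryonic epithelium, 58.4 in embryonic fibers, 11.5 in newborn epithelium and 8.34 in newborn fibers.

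The Mip promoter peak had its summit near −0.5 kb in both epithelial lists, at −505 bp with 39 fragments (27.7 to 53.3) at E14.5 and at −523 bp with 16 fragments (9.15 to 26.0) at P0.5. In newborn fibers the strongest promoter summit was at +57 bp, in an exon of Mip, with 14 fragments (7.65 to 23.5). The epithelial summit and the newborn fiber summit were thus over 0.5 kb apart. In embryonic epithelium the promoter peak was 2255 bp wide, and Mip held 4 further narrow peaks in its body with 8 to 15 fragments.

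The Aqp1 promoter had the lowest summits of the group at E14.5, among the members with a summit called there. Its summit held 11 fragments (5.49 to 19.7) at +4 bp in embryonic epithelium, 16 (9.15 to 26.0) at +1217 bp in embryonic fibers, 20 (12.2 to 30.9) at +14 bp in newborn epithelium and 10 (4.80 to 18.4) at +154 bp in newborn fibers. All of these intervals overlapped. The Aqp5 promoter held 23 fragments (14.6 to 34.5) at −189 bp in embryonic epithelium, 30 (20.2 to 42.8) at −162 bp in embryonic fibers, 16 (9.15 to 26.0) at −153 bp in newborn epithelium and 13 (6.92 to 22.2) at −531 bp in newborn fibers. Its summits in the first 3 of these lists lay within the CpG-rich promoter window printed above.

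As ratios of fibers to epithelium in fold over background, the promoter values at E14.5 were 2.82 for Lim2, 1.10 for Aqp1 and 0.999 for Aqp5. At P0.5 they were 0.963 for Mip, 0.899 for Aqp5, 0.728 for Lim2 and 0.572 for Aqp1. The summits compared were not always at the same place. In the region over the annotated start, the Aqp1 ratio at E14.5 was 0.838, from 12 fragments at +334 bp in fibers and 11 at +4 bp in epithelium, and so fell on the other side of 1, and the Lim2 ratio at P0.5 was 0.606. The promoters of the 8 neighbouring genes with a value at both stages lay between 0.682 and 2.50 in embryonic lenses and between 0.288 and 1.80 in newborn ones, and Timeless, next to Mip, gave the highest of these at each stage. Gls2, a mitochondrial glutaminase, gave 1.0 and 0.499, Stat2, a signal transducer of interferons, gave 1.13 and 0.546, and Etfb, an electron transfer flavoprotein subunit, gave 1.30 and 0.546. The Lim2 ratio at E14.5 was thus above those of these 8 neighbours, but its gap to the 2.50 of Timeless was not tested against counting error. Neighbours without a call in epithelium have no ratio. Among them is Nkg7, downstream of Lim2, with 40 fragments and a fold of 12.2 in embryonic fibers. The member ratios at P0.5 were within the range of the 8 neighbours.

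By rank within their lists, the strongest promoter or gene body peaks of Mip lay at the top 16.0% in embryonic epithelium, 2.12% in embryonic fibers, 36.4% in newborn epithelium and 14% in newborn fibers. Those of Lim2 lay at 11.9%, 3.51%, 20.5% and 10.3%, those of Aqp5 at 27.7%, 23.5%, 36.4% and 15.7%, and those of Aqp1 at 61.2%, 45.8%, 27.9% and 26.4%. Only Mip and Lim2 in embryonic fibers were in the top 10%, a position that 52.7% of all genes reached in that list. None of the members reached it in embryonic epithelium, newborn epithelium or newborn fibers, against 46.7%, 30.8% and 33.2% of all genes. Read against these shares, the rank of the strongest peak did not set the members apart in any list. For Mip the rank in embryonic fibers belongs to the summit in Timeless, the only one listed for its wide peak. With summits required to lie in the promoter or gene body, Lim2 was the only member in the top 10%, a setting that leaves the height at Mip unknown.

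**Figure D3:**
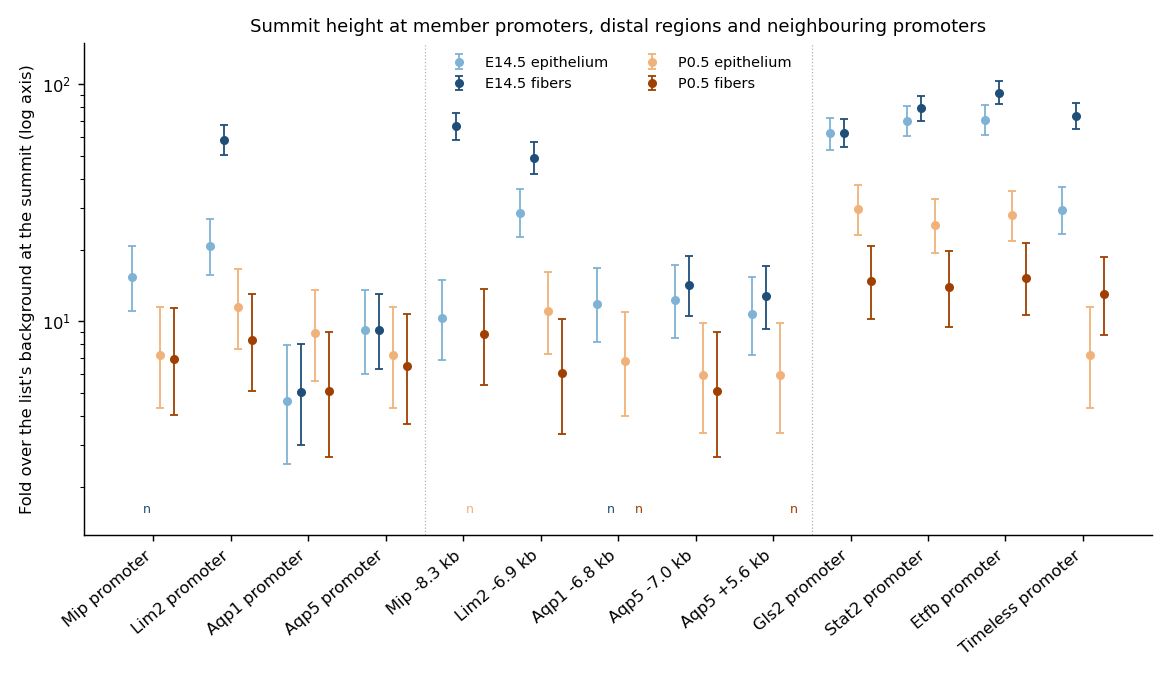
Fold over the background of each pooled list at the summit (y axis, log scale) for the member promoters, the strongest distal region of each member outside other promoters with the next one for Aqp5, and the promoters of neighbouring genes (x axis), with exact 95% Poisson intervals on the fragments as bars and n where a list called no separate summit. The Mip −8.3 kb region and the Lim2 promoter stand highest in embryonic fibers among the member regions drawn, at 66.4-fold and 58.4-fold, and of the neighbouring promoters drawn, those of Gls2, Stat2 and Etfb are lower in newborn fibers than in newborn epithelium and that of Timeless is higher.

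Among distal regions that lay in no promoter of another gene, the strongest of the group was 8.34 kb upstream of Mip, at chr10:128217152-128217803 between genes. Regions in the promoters of Cldnd2 and Etfb, of Apof and Stat2 and of Gls2 ranked higher. The Mip region held 26 fragments (17.0 to 38.1) in embryonic epithelium, 223 (194.7 to 254) in embryonic fibers and 18 (10.7 to 28.4) in newborn fibers, and it was not called in newborn epithelium. It ranked at the top 24.3%, 2.74% and 9.32% of the 3 lists that called it. This is the region whose printed window holds the pair of adjacent Maf matches. Its fold over background was 10.4 in embryonic epithelium and 66.4 in embryonic fibers, while the Gls2 promoter stood at 62.1 and 62.3 in the same lists.

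Lim2 had a comparable region 6.87 kb upstream of its start, chr7:43423025-43424051, which was called in all 4 lists. It held 74 fragments (58.1 to 92.9) in embryonic epithelium, 164 (139.9 to 191) in embryonic fibers, 25 (16.2 to 36.9) in newborn epithelium and 12 (6.20 to 21.0) in newborn fibers. At E14.5 the fold over background was 28.8 in epithelium and 48.9 in fibers, and at P0.5 it was 11 and 6.02. Unlike the Mip region, it was among the stronger regions in epithelium as well, at the top 8.51% of embryonic epithelium.

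Outside the promoters of other genes, Aqp1 had its strongest region 6.76 kb upstream of its start, chr6:55329374-55329664, and this region was called in the epithelial lists only. It held 30 fragments (20.2 to 42.8) in embryonic epithelium and 15 (8.40 to 24.7) in newborn epithelium, at summits 13 bp apart. At Aqp5, the region 7.02 kb upstream lay in an exon of Aqp2, the vasopressin-regulated water channel of the kidney, and held 31, 47, 13 and 10 fragments in embryonic epithelium, embryonic fibers, newborn epithelium and newborn fibers. The region 5.56 kb downstream of the Aqp5 start, chr15:99595885-99596717 and between genes, held 27, 42 and 13 fragments in the first 3 of these lists and was not called in newborn fibers. Neither Aqp2 nor Aqp6, its aquaporin neighbours, had a promoter peak with more than 10 fragments.

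Over the 4 windows of 50 kb, 61 peaks were called in embryonic epithelium, 94 in embryonic fibers, 37 in newborn epithelium and 77 in newborn fibers. Mip had 23, 44, 10 and 29 of these, Lim2 had 12, 23, 11 and 24, Aqp1 had 16, 16, 10 and 14, and Aqp5 had 10, 11, 6 and 10. The medians over all genes were 9, 11, 5 and 5. In the lists as deposited, fibers thus had as many peaks as epithelium or more at each gene and stage, with the widest gaps at Mip and Lim2. Among peaks with a q value under 0.001 this turned for Aqp1, with 13 in fibers and 14 in epithelium at E14.5 and 7 and 9 at P0.5, and for Aqp5 at P0.5, with 4 and 5. Of the peaks in newborn fibers, 40 of 77 had a q value under 0.001, against 31 of 37 in newborn epithelium, and over the whole list 48.9% did, against 80.5% to 87.9% in the other lists.

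Merged across lists, the peaks formed 134 regions, of which 13 (9.70%) were called in all 4 lists, near the 10.9% of merged regions over the whole genome. At Mip, 33 of 50 regions were called in fibers only and 3 in epithelium only. At Lim2 the counts were 17 and 0 of 30, at Aqp1 they were 15 and 12 of 34, and at Aqp5 they were 9 and 4 of 20. Over the whole genome 44.4% of 185368 merged regions were called in fibers only and 19.8% in epithelium only. Fiber-only regions thus made up 66.0% at Mip and 56.7% at Lim2, and 44.1% at Aqp1 and 45.0% at Aqp5, near the share of the genome. Outside the stretch over Timeless and Apon, 14 of 29 Mip regions (48.3%) were fiber-only, which is also near that share. Epithelium-only regions made up 35.3% at Aqp1.

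Within the aquaporin family, all 12 listed genes were measured. Only Mip reached 50% coverage in embryonic fibers. The coverage was at least 20 points above that in epithelium for 3 of them in fibers at E14.5, Mip, Aqp5 and Aqp12, and at P0.5 for none. For Aqp5 this ended with lists of equal length and without the first 2 kb of the gene, settings that were not run for Aqp12. Aqp12, an aquaporin of the exocrine pancreas, was covered over 2.75%, 36.2%, 0% and 9.40% in embryonic epithelium, embryonic fibers, newborn epithelium and newborn fibers. The median of the family was 3.71%, 10.8%, 1.24% and 4.45% in these lists. By the rank of the strongest peak, Aqp11, an aquaporin of intracellular membranes, stood higher than Mip in 3 lists, at the top 8.90%, 5.42%, 3.61% and 6.94%.

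In the PMP22 family, Lim2 was the only one of 5 members to reach 50% coverage or a difference of 20 points. Pmp22, a myelin membrane protein, was covered over 10.5% in embryonic epithelium and 22% in embryonic fibers. Among 7 other genes of the fiber membrane and cytoskeleton, 3 reached 50% in embryonic fibers: the beaded filament genes Bfsp1 at 74.7% and Bfsp2 at 52.6%, and the galectin-related Grifin at 55.2%. In embryonic epithelium these 7 genes had a median of 5.01% and in embryonic fibers one of 36.4%, and at P0.5 the medians were 2.28% and 6.03%. In embryonic fibers Mip was covered over more of its length than any of these 7 genes, and Lim2 over more than 6 of them. Lgsn, a lens glutamine synthetase-like gene, had 0% in all lists, although it had a promoter peak in each list but embryonic epithelium.

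**Figure D4:**
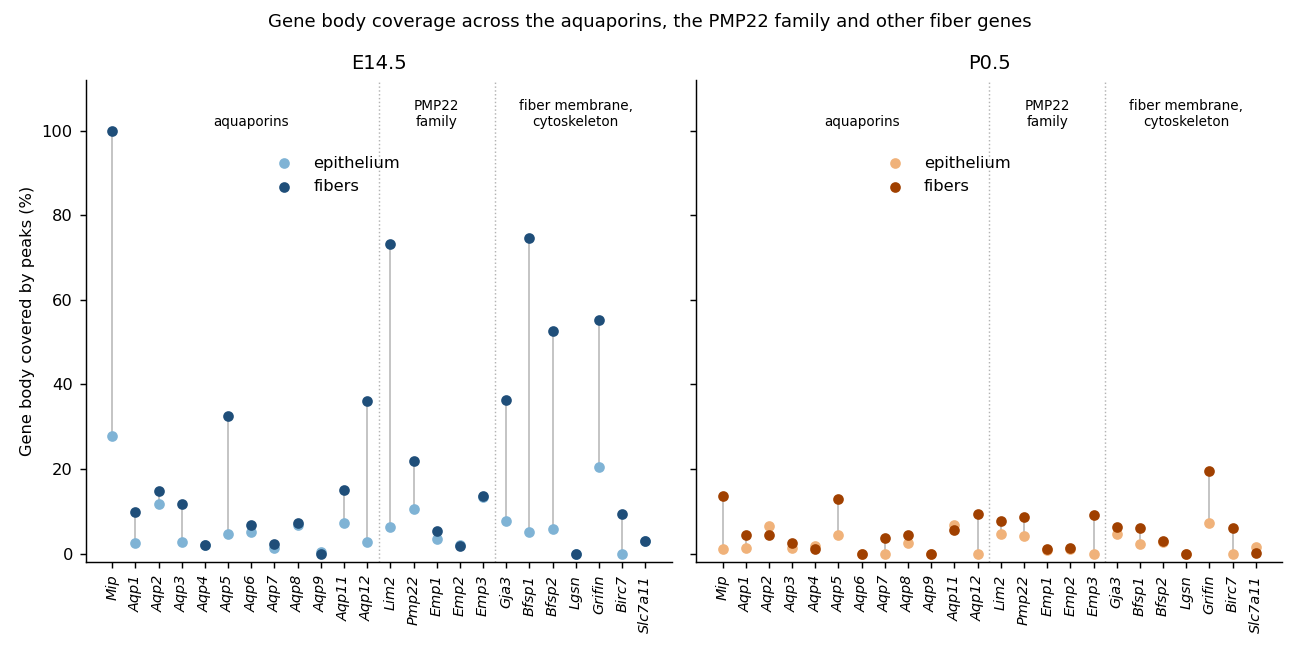
Percentage of the gene body under called peaks (y axis) for each aquaporin, each member of the PMP22 family and 7 other genes of the fiber membrane and cytoskeleton (x axis), with 1 point for epithelium and 1 for fibers, at E14.5 on the left and P0.5 on the right. Fibers stand over 20 points above epithelium at E14.5 for Mip, Aqp5, Aqp12, Lim2 and 4 of the other fiber genes in the lists as deposited, and for no gene at P0.5. For Aqp5 the difference is 14 points with lists of equal length and 0 without the first 2 kb.

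The labels were checked against marker genes. The 9 fiber markers had a median coverage of 7.76% in embryonic epithelium, 65.5% in embryonic fibers, 3.60% in newborn epithelium and 6.32% in newborn fibers. The crystallin gene Crybb1 had 3.0%, 100%, 0.908% and 47.0%. The 6 epithelium markers did not separate the tissues in this direction at E14.5, with medians of 21.3% in epithelium and 31.4% in fibers, whereas at P0.5 the medians were 13.5% and 10.9%. Foxe3, a transcription factor of lens epithelium, had 67.0% in embryonic epithelium and 79.6% in embryonic fibers, and 67.3% and 56.9% in the newborn lists. Pax6, a transcription factor of eye development, had 42.3% and 72.9%, and Gja1, Tfap2a and Pdgfra were higher in embryonic fibers as well. Cdh1, the epithelial cadherin, was the only one of the 6 that was higher in epithelium at E14.5, with 9.28%, 5.99%, 3.27% and 0.277% in the 4 lists. The crystallin gene Cryaa was covered over 100% in embryonic epithelium too. Markers of other cells were mostly low, apart from the retina marker Rax. The 5 endothelial markers, a type that expresses Aqp1, had medians of 1.24%, 1.57%, 0.473% and 0.213%, and none of them had a peak in the top 10%. Of the 3 erythroid markers measured, all were at 0% in embryonic fibers, while Hbb-bs had 1.85% and Slc4a1 0.686% in embryonic epithelium and Slc4a1 had 0.832% and 1.61% in newborn epithelium and fibers. The 3 cornea and ectoderm markers were at most at 3.98% in any list. Of the 3 retina markers, Rax had 24.2% in embryonic epithelium, 26.7% in embryonic fibers, 13.9% in newborn epithelium and 8.99% in newborn fibers, with its strongest peak at the top 5.66% and 5.51% of the embryonic lists. The 3 pigment cell markers were covered over at most 5.0%, although Mitf and Pmel each had a peak in the top 10% of both embryonic lists. In these bulk samples, fewer cells with an open gene and a less open gene in each cell cannot be told apart.

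The genes whose coverage was most like that of each member were found from the percentile of each gene in the 4 lists, by Euclidean distance over these 4 values. For Mip they were Rasd1, Chrng, Hoxd9, Fam83e and Cyp2w1, at distances of 6.26 to 14.4 percentile points. For Lim2 they were Ndrg1, Gja3, Rbm24, Synm and Hmox1, at 6.81 to 8.24, and Gja3, a lens connexin, was covered over 7.76%, 36.4%, 4.68% and 6.32%. For Aqp1 they were Sec13, Brd1, Gpat2, Npy5r and Rab11fip5, at 2.72 to 7.56, and for Aqp5 they were Gm14137, Fut7, Hjv, Tpst2 and Nop53, at 4.58 to 8.12.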

How the data were processed

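ATAC-seq of microdissected lens epithelium and fibers was analysed from the authors' 4 peak lists, each of 2 pooled libraries. Per the labels and the study's methods, the authors trimmed reads with Trim Galore 0.4.1, mapped them to mm10 (GRCm38) with Bowtie2 2.3.3.1, removed mitochondrial and duplicated reads with SAMtools 1.2 and Picard 2.1.1, and called peaks at a q value of 0.05 with MACS2 2.1 on whole fragments, without a shift to the cut site, so nucleosome-length fragments widen peaks. No control library was named. The deposited fold enrichment is a ratio of fragments at the summit to background with a pseudocount of 1 on both. The deposited −log10 p-value and −log10 q-value belong to the same summit, and the deposited score was not used.

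The fold values of every list were whole fragments within 0.01 for 100% of peaks, and the Poisson p-value of those fragments matched the deposited −log10 p-value for 100% of the peaks checked. This decoding was chosen after seeing the data. At least 6 to 8 fragments were needed for a call. The peak lists hold no fragment totals, and the read numbers that the study gives for each library were not used here. The background of each list is given. Fold enrichment was ranked within its own list.

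Coverage and overlaps (at least 1 bp) were computed with python 3.11.15, pandas 2.3.3, numpy 2.4.6 and scipy 1.17.1 from 45756 curated RefSeq transcripts, sequences were read with pysam 0.24.0, and figures were drawn with matplotlib 3.10.9. The steps were tested on simulated peaks with known answers. Calls were made at 50% coverage, 20 points of difference and the top 10% of a list. Named genes were the members, the fixed family and marker lists, genes with a promoter peak in the windows and the 5 genes most like each member. Members and lists were chosen with earlier results of these data known. Alternatives were a q value under 0.001, lists of equal length, other windows (20 and 100 kb), promoters of 1 kb, gene bodies without their first 2 kb, predicted transcripts, merging at 0 and 100 bp, motif windows of 100 and 400 bp, and, chosen after seeing the data, summits in place of overlaps, a background of genes of like length, ratios at the region over the start, lists of equal length for the regions past Mip, and Mip regions outside that stretch. Of 4 erythroid markers, Hba-a1 is shorter than 1 kb and was not measured. One gene of the fiber lists is not reported here.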

Additional observations from a re-analysis of the deposited data

Results flagged for a closer look

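The ratio of fibers to epithelium at the strongest promoter summit lay on opposite sides of 1 at the 2 stages for 2 members. For Lim2 it was 2.82 at E14.5 and 0.728 at P0.5. At P0.5 the fiber summit lay at −1.58 kb, in Gm38999, and the epithelial one at −78 bp, and in the region over the start the ratio was 0.606, from a fiber summit at +5 bp with a fold of 6.95. For Aqp1 it was 1.10 at E14.5, from 11 and 16 fragments, and 0.572 at P0.5, from 20 and 10 fragments. At E14.5 the fiber summit lay at +1217 bp and the epithelial one at +4 bp. In the region over the start the ratio was 0.838, from folds of 3.86 and 4.60, so for Aqp1 both stages were then below 1. Each ratio rests on 1 pooled list a group, and the difference between stages was not tested. Of 8 neighbouring promoters, 5 were likewise above 1 at E14.5 and below it at P0.5 (Apof and Stat2, which share a peak, Gls2, Spryd4 and Etfb). Etfb gave 1.30 and 0.546 and Stat2 gave 1.13 and 0.546, while Timeless gave 2.50 and 1.80.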

How the results depend on the processing

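No paired analysis was possible because each list pools the libraries of a group, and for the same reason no library could be left out. Of the 81 counts recomputed under the alternatives, 70 stayed within 1.5 times the reported count. The other recomputed values, mostly differences of coverage and ratios, were less stable: 33 stayed close to the reported value, 31 moved and 8 turned in direction. The number of peaks in the windows fell to 37 in embryonic epithelium, 52 in embryonic fibers and 48 in newborn fibers within 20 kb, and rose to 144 in embryonic fibers and 60 in newborn epithelium within 100 kb. With lists of equal length it was 31 in embryonic epithelium and 40 in embryonic fibers, and at a q value under 0.001 it was 40 in newborn fibers. With the summit required inside the promoter or gene body, 1 member in place of 2 was in the top 10% in embryonic fibers. The pairs of a summit window and a motif it holds numbered 9 at 200 bp, 4 at 100 bp and 14 at 400 bp. Small differences of coverage changed direction. Without the first 2 kb, the difference between fibers and epithelium at P0.5 became -0.718 points for Lim2 and -9.27 for Aqp5, and that between E14.5 and newborn epithelium became -4.95 for Lim2 and -9.27 for Aqp5. With lists of equal length, E14.5 minus P0.5 was -1.46 points for Lim2 and -1.26 for Aqp1 in epithelium, and -4.50 for Aqp1 in fibers. In the region over the start, the Aqp1 ratio of fibers to epithelium at E14.5 was 0.838 in place of 1.10. The number of members at 50% coverage did not change in any list under these alternatives, none of which alters the width of a peak. Calls rest on few fragments in newborn fibers, so an uncalled region there may be open below detection.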
